A study of Mus musculus with 4 samples.

Results

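The opioid receptor genes Oprk1, Oprl1, Oprm1 and Oprd1, the neuropeptide receptor gene Npbwr1 and the opioid precursor genes Pdyn and Penk were examined by symbol, 7 of the 34682 genes counted in the developing mouse ovary. They were selected on the fold change and adjusted p of Oprk1 between the mutant and wild-type ovaries of these same libraries, and the other 6 were added as its chromosomal neighbour, relatives and ligand precursors. The contrast between the genotypes is therefore given for the 7 genes as a description, and p-values printed for them support nothing. The mutant ovaries carried a BAC construct, a large genomic insert in which the Sall1 coding sequence stands under the promoter and regulatory elements of Wt1, active in gonadal somatic cells. It was integrated by PiggyBac transgenesis into a female line of embryonic stem cells from C57BL/6J embryos, although the methods elsewhere also name a hybrid of C57BL/6J and 129, and animals were made by morula aggregation. The sources used here do not say how many host cells remained in the ovaries, whether the libraries came from 1 clone, or whether ovaries were pooled. The wild-type ovaries had no construct. They are called littermates in one place of the study's text and CD1 in another, and their columns carry the name B6, so the effects of strain and construct cannot be told apart. Ovaries of both genotypes were taken at the embryonic stage E13.5, with 2 libraries per genotype and no further treatment.

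Opioid receptors are G protein-coupled receptors that act mainly through inhibitory G proteins, which lower cyclic AMP and open potassium channels. Oprk1 encodes the kappa receptor, whose main ligands are the dynorphins cut from the Pdyn product. Oprd1 and Oprm1 encode the delta and mu receptors, bound by the enkephalins from the Penk product, and Oprl1 encodes the receptor of nociceptin. Npbwr1 encodes a related receptor for neuropeptides B and W. The system is best known from neurons, although opioid precursor transcripts have long been known in gonads of adult rodents.

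The RefSeq promoters of GRCm38.p6, which run from 250 bases before to 50 after a start site, held 4 of the 7 genes. Those of Oprd1, Oprm1 and Pdyn are printed 5′ to 3′ on the strand of the gene to set a delta receptor gene with counts in every library beside a mu receptor gene listed at 0 and beside the kappa ligand gene. CpG dinucleotides are in capitals, and where several starts are listed the one with the most CpG was taken. The Oprd1 promoter is at chr4:132144437-132144736 on the minus strand, that of Oprm1 at chr10:6788326-6788625 on the plus strand and that of Pdyn at chr2:129699889-129700188 on the minus strand.
Oprd1: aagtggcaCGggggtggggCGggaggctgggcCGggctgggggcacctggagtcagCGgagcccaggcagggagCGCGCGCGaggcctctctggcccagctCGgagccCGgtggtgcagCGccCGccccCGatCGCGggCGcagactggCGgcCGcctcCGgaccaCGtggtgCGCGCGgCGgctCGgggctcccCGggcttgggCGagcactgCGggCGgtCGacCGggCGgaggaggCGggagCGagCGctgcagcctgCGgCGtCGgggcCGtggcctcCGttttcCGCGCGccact
Oprm1: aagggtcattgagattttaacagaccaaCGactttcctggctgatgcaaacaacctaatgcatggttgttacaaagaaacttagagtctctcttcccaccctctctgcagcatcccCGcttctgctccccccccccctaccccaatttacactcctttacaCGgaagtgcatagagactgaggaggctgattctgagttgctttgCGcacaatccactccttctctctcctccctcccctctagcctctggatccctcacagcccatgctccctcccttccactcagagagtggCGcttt
Pdyn: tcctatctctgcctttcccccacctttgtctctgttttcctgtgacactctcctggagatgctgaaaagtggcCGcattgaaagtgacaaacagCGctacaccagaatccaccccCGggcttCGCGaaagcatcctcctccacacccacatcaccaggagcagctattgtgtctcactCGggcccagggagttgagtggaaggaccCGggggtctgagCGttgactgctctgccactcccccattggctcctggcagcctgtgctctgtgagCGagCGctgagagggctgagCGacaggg
The Oprd1 promoter held 43 CpG, a number reached by 2.61% of 32851 promoters of the same length. The Pdyn promoter held 11, reached by 41.4%, and the Oprm1 promoter held 5, reached by 62.0%. The median over all promoters was 7. Oprl1, the fourth gene with a promoter in the table, also held 5 CpG.

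The 4 libraries held between 11036313 and 17869840 counts, with the mutant libraries shallower than the wild-type ones, and floors quoted here cover counting error only. Sall1, the gene of the construct, had 1243 and 1445 counts in the mutant against 279 and 223 in the wild-type libraries. Markers of pre-granulosa cells (Foxl2, Wnt4, Fst, Runx1, Irx3, Bmp2) and of germ cells (Ddx4, Dazl, Dppa3, Sycp3, Stra8, Pou5f1) were all above 3 counts in every library. Skeletal muscle markers summed to 193 CPM (counts after scaling by edgeR's TMM library sizes) in wild-type replicate 1, against 7.59 in wild-type replicate 2 and 30.7 and 4.19 in the mutant replicates.

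Of the 7 genes, 6 had more than 3 counts in every library, and these 6 also passed the filter for low counts. The lowest count among them was 22, for Pdyn, and Oprm1 was listed at 0 in all 4 libraries. A floor of 3 counts corresponds to between 0.170 and 0.272 CPM. The zero of Oprm1 is a listed value only, because Aldoa, a glycolytic gene that most cells use, was also listed at 0 in every library. In these whole-organ libraries, fewer cells of a type and less RNA per cell cannot be told apart.

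Oprk1 lies on the plus strand of chromosome 1, at 5578574 to 5596212 on the mm9 build (NCBIM37, annotated by GENCODE M1), with 4 blocks of exons. It had 168 counts in mutant replicate 1, 234 in mutant replicate 2, 62 in wild-type replicate 1 and 75 in wild-type replicate 2. Both mutant libraries lay above both wild-type libraries, at 15.4 ± 0.219 CPM (SD, n = 2) against 3.93 ± 0.457 CPM (SD, n = 2). The fitted log2 fold change was 1.97 with a standard error of 0.20, or 3.91-fold. Oprk1 was chosen on its fold change and adjusted p between these libraries. In edgeR's quasi-likelihood test its adjusted p was 0.0479, just inside the threshold of 0.05. That 1 of the 6 tested genes of the group passed thus came with the choice. Of all 15442 genes tested 0.0583% passed, 0.013% upward and 0.0453% downward, and nothing is read from the share in the group. The edgeR adjusted p of Oprk1 fell inside the threshold only in fits that held both wild-type libraries. The log2 fold change was 1.86 without wild-type replicate 1 and 2.10 without wild-type replicate 2. DESeq2 gave an adjusted p of 8.89e-07, and edgeR with the replicate number in the fit gave 3.56e-05. These values support nothing either, as the gene was chosen on this contrast.

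Npbwr1 is a neighbour of Oprk1 on chromosome 1, on the minus strand from 5903788 to 5907479, with a single block of exons. Its start is 328.9 kb from that of Oprk1. It had 52 and 69 counts in the mutant replicates and 24 and 38 in the wild-type replicates. The mutant libraries lay above the wild-type ones here too, at 4.65 ± 0.0932 CPM (SD, n = 2) against 1.77 ± 0.536 CPM (SD, n = 2). The wild-type replicates were 1.54-fold apart, and the mutant replicates 1.03-fold. The fitted log2 fold change was 1.39 (standard error 0.35), or 2.61-fold, and lay between 1.11 and 1.74 when each library was left out in turn. Its adjusted p was 0.438 in edgeR and 0.566 in DESeq2.

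**Figure D1:**
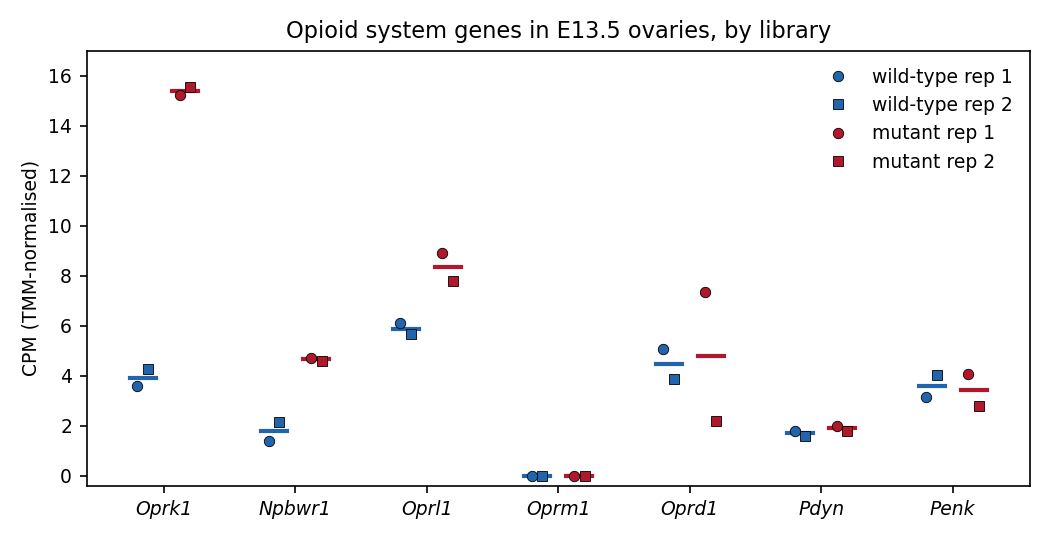
TMM-normalised CPM (y axis, linear) of the 7 genes (x axis) in each library, with blue points for wild-type and red points for mutant libraries and a bar at the mean of each group (n = 2). The red points lie above the blue ones for Oprk1 (15.4 against 3.93 CPM on average), Npbwr1 and Oprl1, Oprm1 lies at 0, and the groups overlap for Oprd1, Pdyn and Penk.

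Oprl1, the nociceptin receptor gene on chromosome 2 (181449721 to 181455690, plus strand), was the third gene with separate groups. It had 98 and 117 counts in the mutant and 105 and 100 in the wild-type replicates, which is 8.33 ± 0.789 CPM (SD, n = 2) against 5.88 ± 0.308 CPM (SD, n = 2). Its log2 fold change was 0.50 (standard error 0.22). In all, 3 of the 6 tested genes of the group had non-overlapping libraries, each higher in the mutant, where 30.9% of all genes tested were separated, 15.8% in that direction and 15.1% in the other. Oprk1 is among the 3 and was chosen on this contrast, so nothing is read from this share.

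Oprd1, the delta receptor gene on the minus strand of chromosome 4 (131666641 to 131700401), differed more between the mutant replicates than between genotypes. It had 81 and 33 counts in the mutant replicates, or 7.35 and 2.19 CPM, a 3.35-fold difference that 2.05% of all genes tested reached between these libraries. The wild-type replicates had 87 and 68 counts, or 5.06 and 3.85 CPM. The mean of the mutant libraries was 4.77 ± 3.65 CPM (SD, n = 2) and that of the wild-type libraries 4.45 ± 0.851 CPM (SD, n = 2). The fitted difference, 0.076 on the log2 scale with a standard error of 0.53, was smaller than the spread between replicates. It was -1.02 without mutant replicate 1 and 0.72 without mutant replicate 2.

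The precursor genes had overlapping groups. Pdyn, on the minus strand of chromosome 2 (129512301 to 129525580), had 22 and 27 counts in the mutant and 31 and 28 in the wild-type replicates. This gave 1.90 ± 0.142 CPM (SD, n = 2) against 1.69 ± 0.152 CPM (SD, n = 2), (log2 fold change 0.16, standard error 0.36). Penk, on the minus strand of chromosome 4 (4060678 to 4065966), had 45 and 42 counts in the mutant and 54 and 71 in the wild-type replicates, or 3.44 ± 0.913 CPM (SD, n = 2) against 3.58 ± 0.626 CPM (SD, n = 2). Its log2 fold change was -0.068 (standard error 0.34). Exons of the opposite-strand RNA gene A830012C17Rik cover 14.3% of the Penk exon length, and the sources do not state how strands were handled, so reads there cannot be assigned with certainty. Oprk1, Npbwr1, Oprl1, Oprd1 and Pdyn had no annotated gene overlapping them, and 1.18% of the Oprm1 exon length overlapped Ipcef1 on the opposite strand.

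Levels were also set per length, as RPKM (CPM per kilobase of the union of a gene's exons). All 7 genes were weakly expressed in the wild-type ovaries, below the median of 4.09 RPKM over 17596 genes with counts and a length. Penk was highest at 2.19 ± 0.383 RPKM (SD, n = 2), followed by Oprl1 at 1.57 ± 0.0822 RPKM (SD, n = 2) and Oprd1 at 1.11 ± 0.212 RPKM (SD, n = 2). These 3 genes did not overlap each other between the 2 wild-type libraries. Pdyn at 0.587 ± 0.0527 RPKM (SD, n = 2), Oprk1 at 0.574 ± 0.0668 RPKM (SD, n = 2) and Npbwr1 at 0.481 ± 0.145 RPKM (SD, n = 2) came next and overlapped each other. That overlap depended on the length used, since with the longest protein-coding transcript Oprk1 (0.771 and 0.909 RPKM in the wild-type replicates) lay above Pdyn (0.755 and 0.665 RPKM), and Pdyn above Npbwr1 (0.378 and 0.583 RPKM).

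In the mutant ovaries the order of levels was another one. Oprk1 reached 2.25 ± 0.0321 RPKM (SD, n = 2), within the range of Oprl1 at 2.22 ± 0.210 RPKM (SD, n = 2) and of Penk at 2.104 ± 0.559 RPKM (SD, n = 2). Npbwr1 stood at 1.26 ± 0.0253 RPKM (SD, n = 2), Oprd1 at 1.19 ± 0.907 RPKM (SD, n = 2) and Pdyn at 0.657 ± 0.0494 RPKM (SD, n = 2), and the range of Oprd1 took in both of the others and overlapped that of Penk. Of the summed RPKM of the opioid receptor genes, Oprk1 made up 34.7% and 46.5% in the mutant replicates and 15.4% and 20.1% in the wild-type replicates. The higher mutant share was in replicate 2, the library in which Oprd1 was low. The RPKM of Oprk1 was 3.22 and 3.66 times that of Pdyn, its ligand precursor, in the mutant libraries, and 0.844 and 1.13 times in the wild-type libraries. With the longest protein-coding transcript as the length, the mutant level of Oprk1 was 3.26 and 3.33 RPKM in the replicates, above both Oprl1 at 2.91 and 2.54 RPKM and Penk at 2.82 and 1.93 RPKM, so the order of these 3 genes in the mutant depended on the length.

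To see how far the difference extended along chromosome 1, the genes starting within 1 Mb of Oprk1 were examined. Of 16 annotated genes, 10 were in the count table and 7 were tested. Besides Oprk1 and Npbwr1 these were the mitochondrial ribosome gene Mrpl15, the depalmitoylase gene Lypla1, the elongation factor gene Tcea1, the proton pump gene Atp6v1h and the autophagy gene Rb1cc1. Their log2 fold changes lay between -0.0024 and 0.17, and 0 of the 5 genes passed (lowest adjusted p 0.9996, edgeR). None passed in DESeq2 or at an unadjusted p under 0.05 in edgeR either. Of all genes tested, 0.0583% passed in edgeR, 0.714% in DESeq2 and 5.69% at the unadjusted threshold, so nothing is read from zeros among 5 genes. Rb1cc1, on the far side of Npbwr1 and 617.7 kb from Oprk1, had 992 and 1297 counts in the mutant and 1400 and 1335 in the wild-type replicates, for a log2 fold change of 0.17, standard error 0.099. Its mutant libraries, at 90.0 and 86.2 CPM, lay above the wild-type ones at 81.4 and 75.6 CPM, as for 15.8% of all genes tested. The libraries of Mrpl15, Lypla1, Tcea1 and Atp6v1h overlapped between the genotypes. Atp6v1h, the tested gene nearest to Oprk1 on the other side, had a log2 fold change of 0.059 (standard error 0.10). The genes Rgs20, Fam150a and St18 had at most 9 counts in a library and were not tested. The RNA-seq counts hold no measure of chromatin or of strain variants at this locus.

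**Figure D2:**
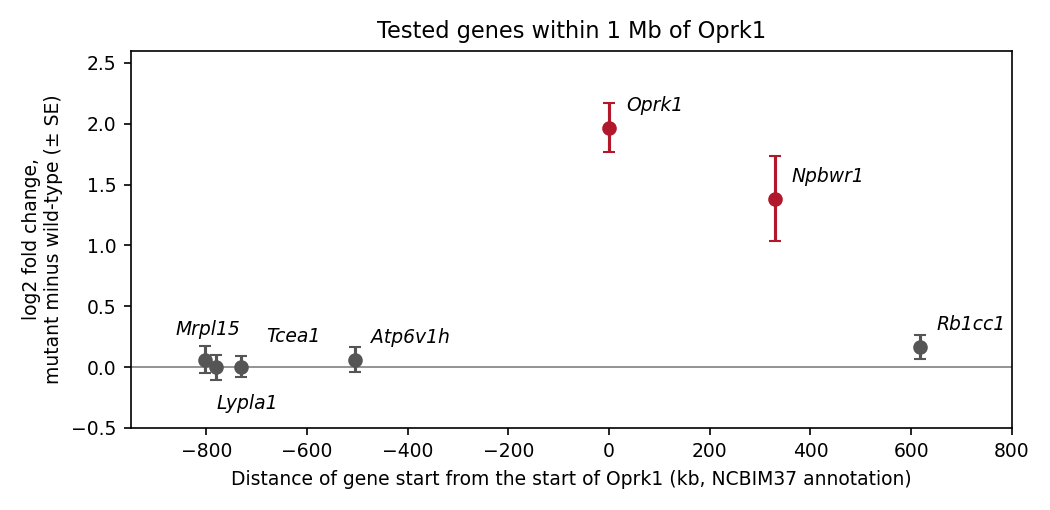
Fitted log2 fold change of mutant minus wild-type ovaries (y axis, points with standard errors) for the 7 tested genes starting within 1 Mb of Oprk1, by the distance of their start from that of Oprk1 in kb (x axis). Oprk1 at 1.97 and Npbwr1 at 1.39 lie above the 5 other genes, which lie between -0.0024 and 0.17.

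The pathway around the receptors was described with 8 lists holding 132 genes, of which 80 were tested. In edgeR's quasi-likelihood test 0 of the 80 genes passed an adjusted p of 0.05, where 0.0583% of all genes tested did. At an unadjusted p under 0.05, 7 were higher and 6 lower in the mutant, against 2.95% and 2.73% of all genes tested. DESeq2 called 4 of the 72 list genes to which it gave an adjusted p, with Cpe, Anpep and Sstr3 higher and Mme lower. Of all 14709 genes with such a value it called 0.714%, 0.286% upward. The mutant libraries lay above the wild-type libraries for 15 of the 80 genes and below them for 22, beside 15.8% and 15.1% of all genes tested. The median log2 fold change over the 80 genes was -0.025, beside -0.00088 over all genes tested.

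The other ligand precursor genes had at most 22 counts in a library. Per length, Npw at 1.33 RPKM and Pomc at 1.11 RPKM in the wild-type ovaries lay above Pdyn at 0.587 RPKM. Their exon lengths were 606 and 1007 bases, against 2887 for Pdyn. Pomc, the precursor of beta-endorphin, had 11 and 16 counts in the mutant and 17 and 22 in the wild-type replicates, and was the 1 tested gene of 4 (log2 fold change -0.11, standard error 0.43, adjusted p = 1.00, edgeR). Npw, which encodes a ligand of the Npbwr1 product, had 6 and 9 counts in the mutant and 17 and 11 in the wild-type replicates. The following were chosen after their values were seen. Npb, for the other ligand, had between 0 and 3 counts. Pnoc, the nociceptin precursor, had 10 and 3 counts in the mutant replicates and 1 and 2 in the wild-type replicates, so that mutant replicate 1 alone was above the floor.

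Genes for cutting and breaking down the peptides held 3 of the 4 DESeq2 calls, among 13 genes of which 10 were tested in edgeR. Mme encodes neprilysin, a membrane peptidase that cleaves enkephalins. It had 554 and 531 counts in the mutant against 1616 and 1314 in the wild-type replicates, or 42.8 ± 10.6 CPM (SD, n = 2) against 84.2 ± 13.8 CPM (SD, n = 2). The log2 fold change was -0.98 (standard error 0.19), which passed in DESeq2 (adjusted p = 0.000235) and not in edgeR (adjusted p = 0.266). Anpep, aminopeptidase N, which also cleaves enkephalins, had 2048 and 2565 counts in the mutant against 2015 and 1824 in the wild-type replicates, or 178 ± 10.8 CPM (SD, n = 2) against 110.2 ± 9.73 CPM (SD, n = 2). Its log2 fold change was 0.69 (standard error 0.10), with an adjusted p of 0.000114 in DESeq2 and 0.144 in edgeR. Cpe, the carboxypeptidase that trims peptide ends after the precursors are cut, had 1667 and 2481 counts in the mutant against 1837 and 1810 in the wild-type replicates (log2 fold change 0.60, standard error 0.094, adjusted p = 0.00189 in DESeq2 and 0.157 in edgeR). The cathepsin gene Ctsl had the highest wild-type level of the list, 67.7 RPKM, and was nearly level between genotypes at -0.0022 on the log2 scale (standard error 0.099). Pcsk1 and Pcsk2, the convertases that cut opioid precursors in neuroendocrine cells, chosen after their values were seen, had between 1 and 10 counts and were not tested.

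The signalling genes downstream held 0 calls in edgeR and in DESeq2, which called 0.0583% and 0.714% of all genes, so nothing is read from these zeros. At an unadjusted p under 0.05, 1 G protein gene was higher and 2 were lower in the mutant, 1 cyclase or channel gene was lower and 1 kinase, arrestin or adaptor gene was higher. Of all genes tested in edgeR, 2.95% were higher and 2.73% lower at that threshold. Of 19 G protein subunit genes 17 were tested, with a median log2 fold change of -0.21 beside -0.00088 over all genes. Among them 7 had lower and 1 had higher mutant libraries without overlap, where all genes gave 15.1% and 15.8%. Gnb1 had the highest wild-type level, 174 RPKM, (log2 fold change -0.0012, standard error 0.091). Gng2, a gamma subunit gene, had the smallest p of the list, with 540 and 686 counts in the mutant against 1083 and 1132 in the wild-type replicates (log2 fold change -0.43, standard error 0.11, adjusted p = 0.437, edgeR). Among 12 tested cyclase and channel genes, the adenylyl cyclase gene Adcy2 had the smallest p (log2 fold change -0.36, standard error 0.13, adjusted p = 0.783, edgeR) and Adcy6 the highest wild-type level, 16.2 RPKM. Among the 9 kinase, arrestin and adaptor genes, the receptor kinase gene Grk4 had 71 and 116 counts in the mutant against 71 and 76 in the wild-type replicates (log2 fold change 0.75, standard error 0.25, adjusted p = 0.704, edgeR). Gabarapl1, whose product binds the kappa receptor, stood at 26.8 RPKM in wild-type ovaries (log2 fold change 0.085, standard error 0.11).

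The 5 other opioid-binding or opioid-named genes and the 7 tested transcription factor genes held 0 calls in either tool and 0 at an unadjusted p under 0.05. Of all genes, 0.0583% were called in edgeR, 0.714% in DESeq2 and 5.69% at the unadjusted threshold, so nothing is read from these zeros. Ogfr, which encodes a receptor of Met-enkephalin unrelated to the classical ones, stood at 30.4 RPKM in the wild-type ovaries, above each of the 7 genes of the group (log2 fold change -0.031, standard error 0.14). Rest, a repressor of neuronal genes, stood at 11.9 RPKM in the wild-type ovaries (log2 fold change 0.11, standard error 0.21), and Creb1, which mediates cyclic AMP responses, lay at -0.24 on that scale (standard error 0.11, adjusted p = 0.971, edgeR).

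**Figure D3:**
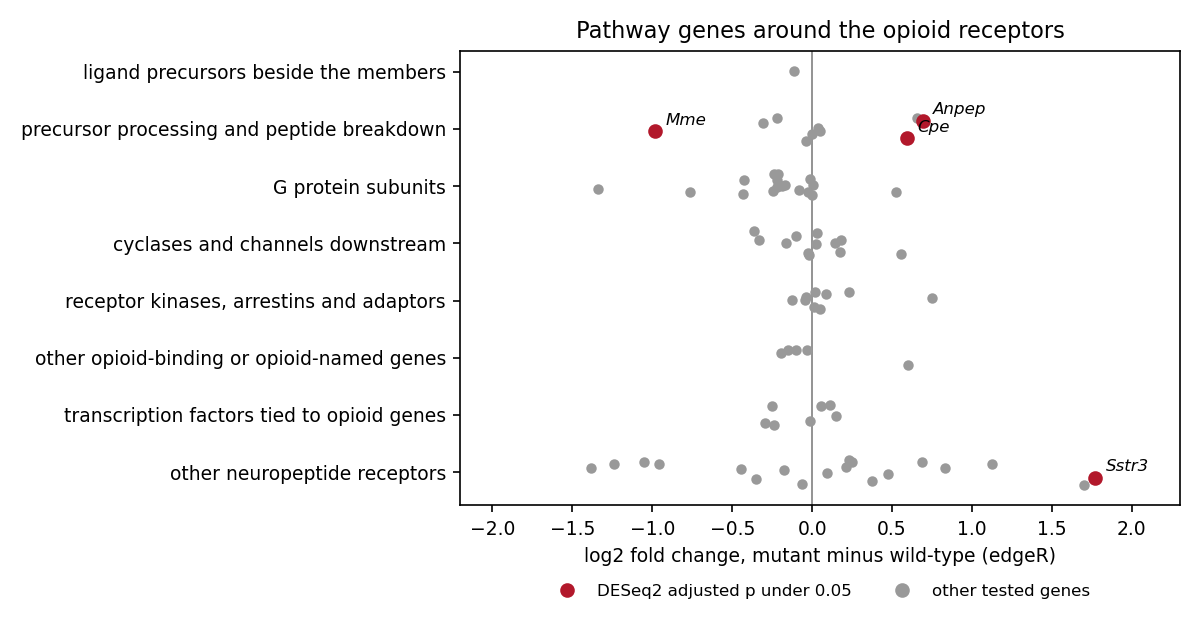
Fitted log2 fold change of mutant minus wild-type ovaries (x axis, edgeR) for the 80 tested genes of the 8 pathway lists (y axis, one row per list, points spread vertically for legibility). The red points are the 4 genes with a DESeq2 adjusted p under 0.05, with Mme at -0.98 and Anpep, Cpe and Sstr3 at 0.69, 0.60 and 1.77, and most grey points lie near 0.

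Of 58 other neuropeptide receptor genes, 19 were tested and 24 had no library above 3 counts. Sstr3, a somatostatin receptor gene whose product also couples to inhibitory G proteins, had 110 and 145 counts in the mutant against 48 and 52 in the wild-type replicates. This was 9.81 ± 0.242 CPM (SD, n = 2) against 2.87 ± 0.111 CPM (SD, n = 2), and both mutant libraries lay above both wild-type ones. Its log2 fold change of 1.77 (standard error 0.24) passed in DESeq2 (adjusted p = 0.00158) and not in edgeR (adjusted p = 0.106). The best expressed receptor of the list, Adcyap1r1 for the peptide PACAP, stood at 6.55 RPKM in wild-type ovaries and differed by -0.066 on the log2 scale (standard error 0.11). The 19 log2 fold changes ran from -1.38 to 1.77 with a median of 0.21, and 6 genes were separated upward and 5 downward, beside 15.8% and 15.1% of all genes.

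Genes whose profile over the 4 libraries was most like that of Oprk1 were sought among the other tested genes by the root mean square difference of log2 CPM, each gene centred on its own mean. The log2 CPM here included a prior of 2 counts, which shrinks the differences of genes with few counts. With 4 libraries in 2 groups, this measure mainly finds genes with a difference of similar size after that shrinkage. The nearest was Bmp3, a member of the BMP family, at 0.0909, with 16 and 22 counts in the mutant and 5 and 5 in the wild-type replicates. The cytokine gene Il15 followed at 0.107, with 59 and 92 counts against 26 and 28, and Sstr3 was the third at 0.122. Akr1c18, which encodes a progesterone-metabolising enzyme, stood at 0.152, with 22 and 42 counts against 8 and 10. Gm10432 stood at 0.168, with 15 and 22 counts against 6 and 7. The fitted log2 fold changes were 2.31 for Bmp3, 2.20 for Akr1c18, 1.90 for Gm10432, 1.88 for Il15 and 1.77 for Sstr3. That of Oprk1 was 1.97, so the closeness of Bmp3 and Akr1c18 partly reflects the prior. Nothing is read from mutant against wild-type tests of these 5 genes as a set, since the choice by likeness fixes their direction and size. The test of Sstr3 was given above only because Sstr3 belongs to the list of neuropeptide receptors. Npbwr1 took rank 22 at 0.318, and Sall1 rank 84 at 0.508. The largest single-library difference as the measure gave the same 5 genes.

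**Figure D4:**
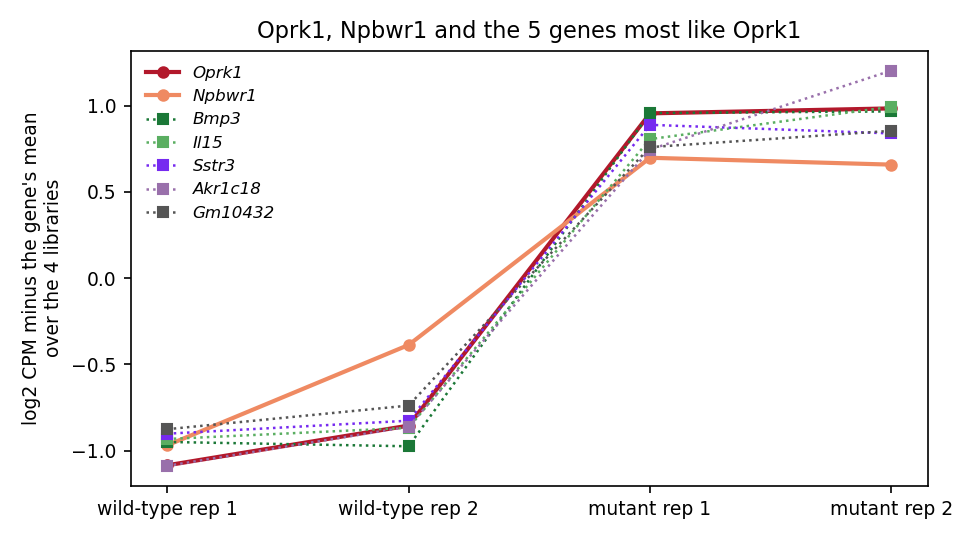
Log2 CPM, with a prior of 2 counts, minus each gene's mean over the 4 libraries (y axis) in each library (x axis). Shown are Oprk1, Npbwr1 and the 5 genes with the profile most like Oprk1, with lines joining the points of one gene only to guide the eye. All 7 genes lie below their mean in the wild-type and above it in the mutant libraries, and Npbwr1 departs most from Oprk1, in wild-type replicate 2, by 0.468.

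Markers of other cell types that an ovary sample could hold were set beside these values, and 0 of the 44 tested markers passed in edgeR, with 10 at an unadjusted p under 0.05, where 5.69% of all genes tested were. DESeq2 called 1, the pre-granulosa marker Bmp2, which was lower in the mutant (DESeq2 log2 fold change -0.80, standard error 0.20, adjusted p = 0.00907), and with the replicate number in the edgeR fit 7 were called, where 2.49% of all genes were. Among the 10 were Foxl2, Irx3, Mc2r and Ptgds with positive and Bmp2, S100b, Kdr and Myh3 with negative log2 fold changes. The value of Foxl2, which defines pre-granulosa cells, was 0.59 (edgeR, standard error 0.12). Pre-granulosa markers summed to between 527 and 540.4 CPM in the mutant and between 487 and 514 CPM in the wild-type libraries, and germ cell markers to between 1394 and 1615 against between 1463 and 1586 CPM. Sympathetic neuron markers, with 4 of 8 above 3 counts in every library, summed to between 7.51 and 13.8 CPM in the mutant and between 9.41 and 13.8 CPM in the wild-type libraries, and the defining marker Dbh, with at most 5 counts, was at 0 in mutant replicate 2. Glial markers, 4 of 6 above 3 counts, summed to between 30.1 and 34.2 CPM in the mutant and between 35.2 and 51.7 CPM in the wild-type libraries, with Sox10 at 0 in 1 library. Adrenal cortex markers, 3 of 5 above 3 counts, summed to between 4.12 and 5.99 CPM in the mutant and between 2.89 and 3.95 CPM in the wild-type libraries, with Cyp21a1 and Cyp11b1 at 0 in a library. Sertoli cell markers, 4 of 5 above 3 counts, summed to between 13.4 and 15.8 CPM in the mutant and between 9.47 and 13.4 CPM in the wild-type libraries. Mesonephric tubule and duct markers, 5 of 6 above 3 counts, summed to between 153 and 161 CPM in the mutant and between 142 and 167 CPM in the wild-type libraries. Endothelial markers, all 5 above 3 counts, summed to between 383 and 408 CPM in the mutant and between 423 and 430.4 CPM in the wild-type libraries. The sums of 5 lists did not overlap between the genotypes, but their members did not move together. In the pre-granulosa list Foxl2, Fst and Irx3 were separated upward and Bmp2 downward, and in the adrenal list Mc2r and Mrap upward and Akr1b7 downward. The Sertoli sums of mutant replicate 1 and wild-type replicate 2 differed by less than 3 counts, and Ptgds, at 3.45 and 4.45 CPM in the mutant against 1.16 and 1.19 CPM in the wild-type replicates, made up most of the difference. In the glial list S100b was among the genes separated downward, while Sox10, Fabp7 and Erbb3 overlapped. The endothelial difference was that of Kdr, at 95.1 and 90.5 CPM in the mutant against 129 and 126 CPM in the wild-type replicates, while Pecam1, Cdh5, Tek and Emcn overlapped, with log2 fold changes between -0.021 and 0.027. The part of these markers in the difference of Oprk1 and Npbwr1 was not tested.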

How the data were processed

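RNA-seq of E13.5 mouse ovaries gave 4 libraries. The authors aligned reads with STAR 2.6.1d to mm9, per the labels, and deposited counts per gene made with summarizeOverlaps, neither normalised nor pooled. The annotation and the handling of strands are not given in the sources used here, and 0 columns were left unused. Of the 34682 genes, the 15442 that passed filterByExpr were fitted with edgeR 4.0.16 in R 4.3.3. The fit used TMM normalisation, genotype as the only factor, the quasi-likelihood F-test and Benjamini-Hochberg adjustment at 0.05. Nothing says that libraries of a genotype came from separate animals, so p-values measure the spread between libraries. DESeq2 1.42.0, the authors' own tool, was run at its defaults as an alternative. The fits were tested on simulated data. Positions and lengths came from GENCODE M1 on NCBIM37. Library totals lay between 11036313 and 17869840, and 3 counts were the floor.

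The members and lists were chosen with earlier results of these data known. Named are the 7 members, list genes with an adjusted p under 0.05 in edgeR, with or without the replicate number, or in DESeq2, the gene of highest wild-type RPKM and of smallest p in each list, genes within 1 Mb of Oprk1, the 5 genes most like Oprk1, and Sall1. Some genes that this rule or the marker lists take in are not reported here. Cell type marker lists were described by their sums. Alternatives were other normalisations, filters, a replicate block, each library left out, and other lengths.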

Additional observations from a re-analysis of the deposited data

How the results depend on the processing

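The log2 fold changes of Oprk1, Npbwr1, Oprl1 and Pdyn kept their sign under all 10 alternatives run. With each library left out they ranged from 1.86 to 2.10 for Oprk1, from 1.11 to 1.74 for Npbwr1, from 0.40 to 0.59 for Oprl1 and from 0.080 to 0.25 for Pdyn. A fit with a library left out assumes that the lone sample varies like the other group. Oprd1 ranged from -1.02 to 0.72 and Penk from -0.36 to 0.19, so that single libraries decided their sign. For Oprd1 it was negative without mutant replicate 1 and, at -0.10, without wild-type replicate 2, and for Penk it was positive without mutant replicate 2 (0.19) and without wild-type replicate 2 (0.13). The 9 genes called over all genes became 105 with DESeq2, 28 with no filter on low counts, 19 with at least 10 counts in every library, and between 4 and 130 with a library left out. The 0 pathway list genes called became 4 with DESeq2, 1 with no filter, and between 0 and 4 with a library left out. The cause was not tested.

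Across genes, the departures of same-numbered libraries from the mean of their genotype correlated at 0.481, and their columns carry adjacent library numbers, but no label says that they were prepared as pairs. With the replicate block, 385 genes were called, among them 6 pathway list genes, Cpe, Anpep and Sstr3 upward and Mme, Gng2 and Gng13 downward. The replicate block gave Npbwr1 an adjusted p of 0.0290 (edgeR) in place of 0.438 and turned Oprd1 to -0.054. With it, 7 cell type markers were called in place of 0, Foxl2 and Ptgds upward and Bmp2, Kdr, Myh3, Actc1 and Acta1 downward. Depth limits the reading of Npb, Pnoc, Pcsk1 and Pcsk2.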
